A study of Zea mays with 4 samples.

Results

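GLK44, golden2 and glk1 are 3 maize genes of the G2-like (GARP) family of transcription factors, measured here in the growing leaf under low and control nitrogen. They were taken by gene identifier (GRMZM2G124540, GRMZM2G087804 and GRMZM2G026833) and fill 4 rows of a table of 30378 loci with 27390 gene names, because golden2 stands on 2 rows. They were chosen by their FPKM values in these same libraries, GLK44 for its large fall in LN and the other two for contrast with it. Their values are therefore given as a description, without a test. RNA was sequenced from the elongation zone of leaf 6 of the inbred line B73, the line of the maize reference genome, grown in hydroculture. The LN group was 2 libraries from plants supplied with 0.04 mM nitrogen, and the HN group was 2 libraries from plants supplied with 4 mM. One source label of the HN samples writes nM, and the mM of their description was used. The labels leave unsaid whether libraries of the same group stem from different plants. Errors and p-values here therefore describe the scatter between libraries, and that scatter may be technical. In whole tissue, fewer cells of a type and less RNA per cell cannot be told apart.

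G2-like proteins bind DNA through a single repeat related to that of MYB proteins. golden2 gave the family its name. Maize plants that lack it have pale leaves with poorly developed chloroplasts in the bundle sheath, the ring of cells around the veins where the C4 leaf fixes carbon by rubisco. Its close relative glk1 is known from the mesophyll, the outer cells that capture carbon dioxide with phosphoenolpyruvate carboxylase. In Arabidopsis and rice, GLK proteins switch on genes of light harvesting and chlorophyll synthesis. GLK44 carries only a family number as its name, and in maize it has been linked to tryptophan metabolism under drought.

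GLK44 was nearly silent in LN and moderately expressed in HN. It had 0.366 and 0.319 FPKM in the LN libraries, against 10.3 and 13.6 FPKM in the HN libraries. FPKM scales the sequenced fragments of a gene by transcript length and by library size, so levels of different genes can be set side by side. Both LN values lay far under both HN values. The means were 0.343 ± 0.0327 FPKM in LN and 11.9 ± 2.34 FPKM in HN (SD, n = 2 each), a level 34.8-fold lower in LN. The difference of LN minus HN in log2(FPKM + 1) was -3.26 (SE 0.24), a measure in which low genes change less than in the plain ratio. The authors' deposited table gives a log2 fold change of -5.24. Of 22489 loci with at least 1 FPKM in 2 or more libraries, GLK44 had the 32nd lowest difference. Within each library, it was higher than 0.9% and 0.8% of these loci in LN, against 55.6% and 62.6% of them in HN. It passed the filter through its HN level alone.

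golden2 was at a similar level in every library. It had 12.9 and 12.3 FPKM in LN, against 9.29 and 11.4 FPKM in HN. The LN libraries lay above the HN libraries, by less than 1 FPKM between the nearest pair. The means were 12.6 ± 0.385 FPKM in LN and 10.3 ± 1.48 FPKM in HN (SD, n = 2 each), with a difference of 0.27 on the log2(FPKM + 1) scale (SE 0.21). In the authors' deposited table its log2 fold change is 0.17.

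The mesophyll-type regulator glk1 was the more variable of the pair. It had 11.1 and 7.29 FPKM in LN, against 11.4 and 16.0 FPKM in HN. The higher LN library and the lower HN library were almost level, and the libraries of each group differed from each other by more than that gap. The means were 9.22 ± 2.73 FPKM in LN and 13.7 ± 3.23 FPKM in HN (SD, n = 2 each), with a difference of -0.53 on the log2(FPKM + 1) scale (SE 0.29). The authors' deposited table has a log2 fold change of -0.67. Group ranges that do not overlap were common with 2 libraries a side. They occurred in the direction of golden2, higher in LN, in 36.6% of all loci tested and in that of glk1, lower in LN, in 29.9%.

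**Figure D1:**
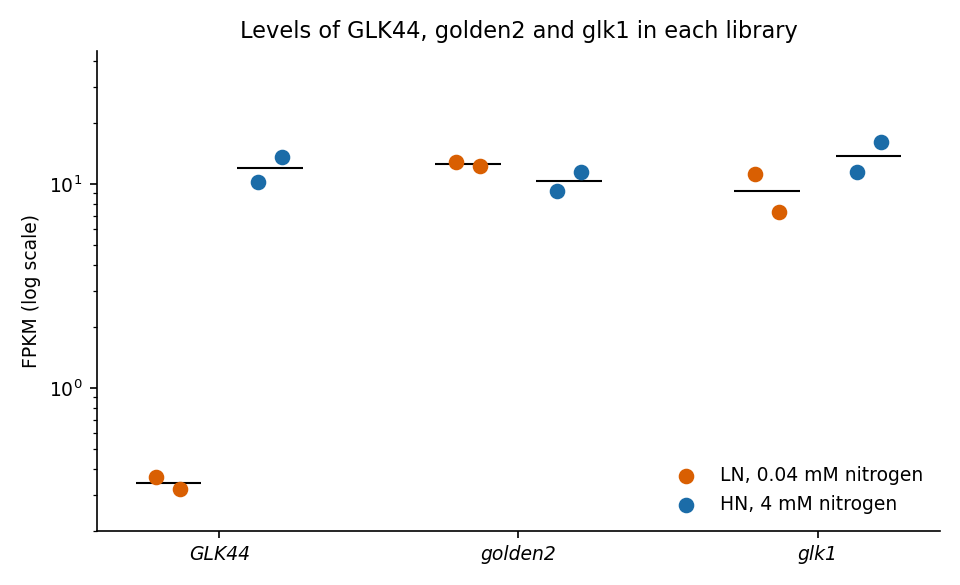
FPKM (log axis) of GLK44, golden2 and glk1 in the 2 LN libraries (orange, left of each pair) and the 2 HN libraries (blue); points are libraries and black lines group means. GLK44 lies at 0.319 to 0.366 FPKM in LN and at 10.3 to 13.6 FPKM in HN, while golden2 and glk1 stay between 7.29 and 16.0 FPKM in every library.

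Ratios between the genes within a library do not depend on how libraries were scaled. In HN the 3 genes were about equally abundant per length, and in LN GLK44 was far below the other two. GLK44 made up 1.50% and 1.60% of the summed FPKM of the 3 genes in the LN libraries, against 33.1% and 33.2% in the HN libraries. The level of golden2 was 35.2 and 38.5 times that of GLK44 in LN, against 0.905 and 0.839 times in HN. The order of golden2 and glk1 also differed between the groups. golden2 had 1.15 and 1.69 times the level of glk1 in LN, and 0.814 and 0.713 times its level in HN. golden2 was thus the more abundant of the pair in both LN libraries and the less abundant in both HN libraries. Their summed level was 24.0 and 19.6 FPKM in LN, against 20.7 and 27.4 FPKM in HN, so the sums of the groups overlapped.

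**Figure D2:**
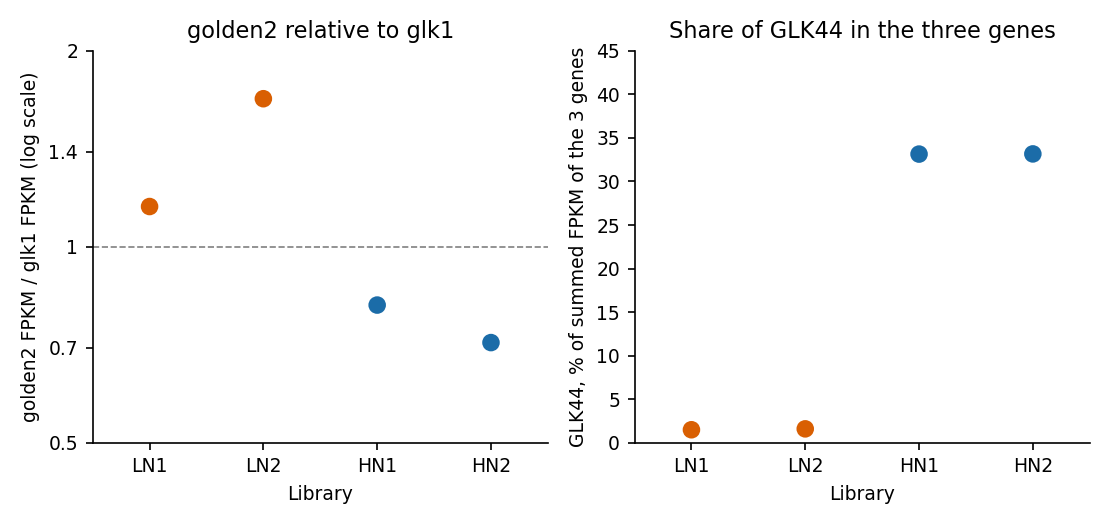
Left, ratio of golden2 to glk1 FPKM within each library (log axis, dashed line at equal levels); right, GLK44 as a percentage of the summed FPKM of the 3 genes. LN libraries are orange and HN libraries blue. The ratio is 1.15 and 1.69 in LN and 0.814 and 0.713 in HN, and the GLK44 share is 1.50% and 1.60% in LN and 33.1% and 33.2% in HN.

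FPKM summed over all loci ranged from 666397 and 710263 in the LN libraries to 814307 and 1113329 in the HN libraries, so the scaling matters for small changes. The number of reads is unknown. Judged by the commonest ratio between the smallest values of a pair of libraries, relative depth was 100% and 91.6% in the LN libraries and 75.8% and 64.3% in the HN libraries. HN1 and HN2 name the first and second HN column of the table and pair nothing with LN1 or LN2. Rescaled to the same total in each library (TPM), an alternative chosen after seeing these totals, GLK44 had 0.549 and 0.450 TPM in LN against 12.6 and 12.2 TPM in HN. golden2 then had 19.3 and 17.3 TPM in LN against 11.4 and 10.2 TPM in HN. glk1 had 16.7 and 10.3 TPM in LN against 14.0 and 14.4 TPM in HN, with groups that overlapped. The rescaling moved the median log2 difference of all loci tested to 0.48, against 0.07 in FPKM. limma then called 737 loci lower and 980 higher in LN, against 855 lower and 266 higher in FPKM. Relative to that median, the log2 differences in TPM were -3.64 for GLK44, 0.23 for golden2 and -0.59 for glk1, against -3.33, 0.19 and -0.61 in FPKM. The size of the golden2 and glk1 differences thus changed with the scaling, and their place among all loci changed little.

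**Figure D3:**
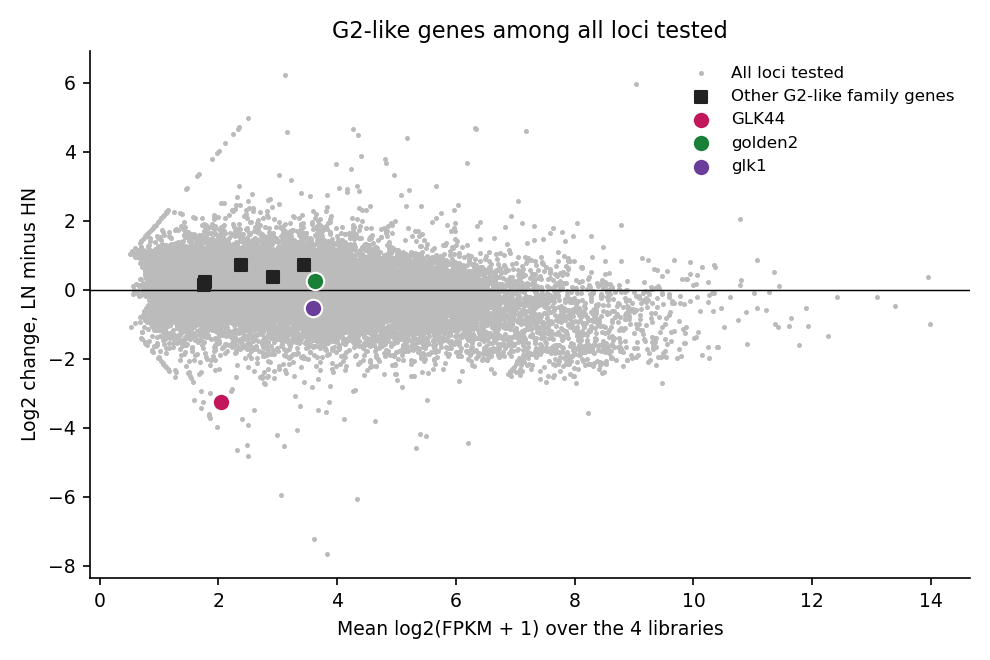
Log2 difference of LN minus HN (vertical) against mean log2(FPKM + 1) over the 4 libraries (horizontal) for the 22489 loci tested (grey), other tested G2-like family genes (black squares), GLK44, golden2 and glk1. GLK44 lies at -3.26 below the main cloud, golden2 at 0.27 and glk1 at -0.53 inside it.

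The genomic setting of the 3 genes differs. Positions are those of the deposited loci on B73 RefGen_v3, and exons, introns and untranslated regions were not analysed here. GLK44 lies on chromosome 1 (280284827 to 280286869, a span of 2043 bp) and glk1 on chromosome 9 (2711603 to 2714038, 2436 bp). The golden2 locus on chromosome 3 (1464298 to 1477077) spans 12780 bp and is longer than 88.5% of the loci tested. A second row with the same gene name and the same interval had 0.160 and 0.398 FPKM in LN, against 0.0247 and 0.0584 FPKM in HN, and did not reach the filter. Intervals shared by 2 or more loci occurred 1668 times in the table. Whether reads from other transcripts of the interval enter the golden2 level was not tested.

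Loci around GLK44 were read beside it. Since GLK44 was chosen for its large difference, that they lay closer to no difference follows from that choice. Of 4 loci within 100 kb, 3 were tested with limma, a linear model fitted to all loci at once, and 0 passed an adjusted p under 0.05, where 4.98% of all loci tested passed. At an unadjusted p under 0.05 the count was 2, where 16.4% of all loci tested were lower and 15.9% higher at that level. The authors' deposited table called 0, where it called 19.4% of all loci tested. The nearest locus, Novel_137, starts 5629 bp after GLK44, was listed at 0 FPKM in 3 of the 4 libraries and was not tested. The nearest locus with a gene name, GRMZM5G886709, ends 8580 bp before GLK44 and had 11.1 and 9.61 FPKM in LN, against 14.2 and 16.6 FPKM in HN. SnRK2.8, named as a gene of the SnRK2 protein kinase family, starts 69900 bp after GLK44 and had 31.8 and 33.1 FPKM in LN, against 23.3 and 27.6 FPKM in HN. The log2 differences of the 3 tested loci ran from -0.53 to 1.33.

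Around golden2, 9 of 10 loci within 100 kb were tested, and the untested locus was the second golden2 row itself. limma called 0 of the 9 at an adjusted p under 0.05, against 4.98% of all loci tested. At an unadjusted p under 0.05 it gave 2 lower and 2 higher, against 16.4% and 15.9% of all loci. The authors' deposited table called 1, against 19.4%. That 1, GRMZM2G087714, starts 166 bp after the golden2 interval. It had 15.9 and 12.9 FPKM in LN, against 23.8 and 41.8 FPKM in HN, a log2 difference of -1.08 (limma adjusted p = 0.0915). It was named after its values were seen, as was GRMZM5G886709. The position of glk1 had 1 other locus within 100 kb, GRMZM2G180836, listed at 0 FPKM in both HN libraries and in 1 LN library and under the filter.

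**Figure D4:**
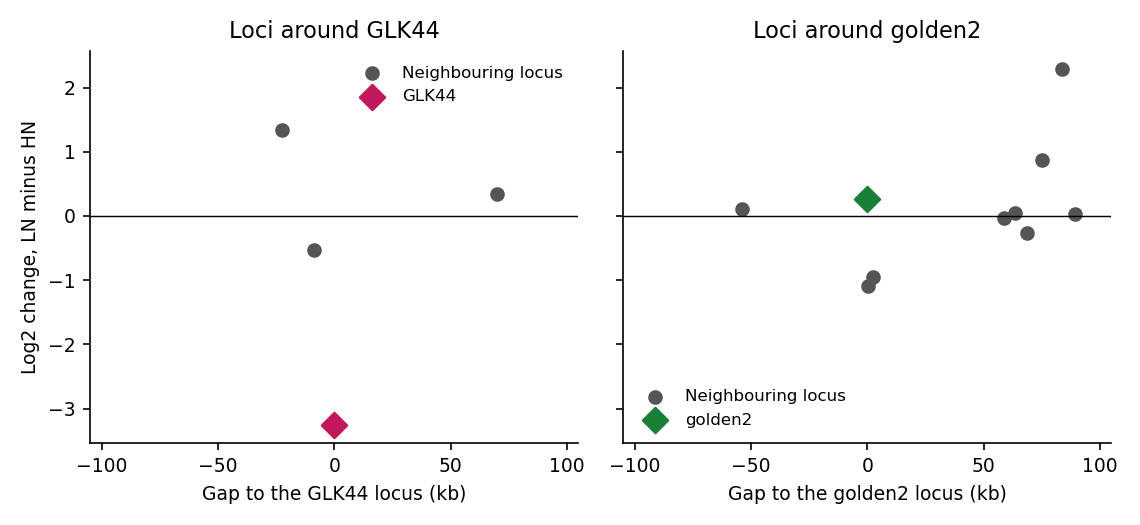
Log2 difference of LN minus HN on log2(FPKM + 1) of tested loci within 100 kb of GLK44 (left) and golden2 (right), against the gap in kb to that locus (negative before it, positive after it); diamonds mark GLK44 and golden2. The loci around GLK44 lie between -0.53 and 1.33, and those around golden2 between -1.08 and 2.30.

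The other G2-like genes that reached the filter had positive differences, and several below it were lower in LN. Besides the 3 genes, 10 family genes were found by symbol, among them KANADI genes, which set the lower side of the leaf in Arabidopsis and maize, and PHR1 (GLK17), named for the regulator of phosphate starvation responses in other plants. Of these, 5 passed the filter, and all 5 had positive log2 differences, from 0.13 to 0.72. limma called 0 of the 5 higher and 0 lower, against 1.18% and 3.80% of all loci tested. At an unadjusted p under 0.05, 2 were higher (GLK15 and GLK23), against 15.9% of all loci tested, and the authors' deposited table called 0, against 5.76% of all loci tested called higher there. GLK15, the most abundant of them, had 12.6 and 13.5 FPKM in LN, against 7.76 and 7.27 FPKM in HN, a log2 difference of 0.72 (SE 0.19, limma adjusted p = 0.0836). GLK17 had 7.24 and 7.93 FPKM in LN, against 5.97 and 5.43 FPKM in HN, a log2 difference of 0.36 (limma adjusted p = 0.275). In both genes the LN libraries lay above the HN libraries, as in 36.6% of all loci tested.

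The remaining tested family genes, GLK23, kan1 and mwp1, were named after their values were seen. GLK23 had 6.01 and 5.32 FPKM in LN, against 2.58 and 3.59 FPKM in HN. The KANADI genes kan1 and mwp1 averaged 2.55 ± 0.165 and 2.69 ± 0.141 FPKM in LN and 2.25 ± 0.569 and 2.15 ± 0.303 FPKM in HN (SD, n = 2). The median log2 difference of the 5 tested family genes was 0.42 without HN1 and 0.33 without HN2. Under quantile normalization, and likewise without HN2, 1 of the 5 differences was negative. The other 5 family genes, GLK5, GLK41, GLK47, GLK52 and kan3, stayed under 1 FPKM in every library. GLK5 was listed at 0 FPKM in both LN libraries, against 0.128 and 0.202 FPKM in HN. GLK47 had 0.0745 and 0.0811 FPKM in LN, against 0.360 and 0.155 FPKM in HN. GLK52 had 0.0296 and 0.0959 FPKM in LN, against 0.425 and 0.138 FPKM in HN. With all loci above 0 fitted, 4 of the 10 family genes besides the 3 had negative log2 differences.

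Genes of light harvesting and chlorophyll synthesis, known targets of GLK proteins in Arabidopsis and rice, had negative differences in LN, of which limma called 2 of 8 and 3 of 7. Of 8 light-harvesting loci, whose products bind chlorophyll around the photosystems, all 8 had negative log2 differences, with a median of -1.67 against 0.07 over all loci tested. CAB-M9 stands on 2 loci of the same interval. The lower had 1.71 and 0.910 FPKM in LN, against 0.879 and 8.25 FPKM in HN, and its groups overlapped. limma called 2 lower, against a background of 3.80% lower. The authors' deposited table called 7 lower, against 13.6% of all loci tested, and 5 were lower at an unadjusted limma p under 0.05, against 16.4%. lhcb4, a minor antenna gene of photosystem II, had 7.78 and 10.4 FPKM in LN, against 39.5 and 27.0 FPKM in HN (log2 difference -1.75, SE 0.27, limma adjusted p = 0.0446). The antenna gene cab-m1 had 158 and 64.7 FPKM in LN, against 554 and 799 FPKM in HN (log2 difference -2.71, SE 0.50, limma adjusted p = 0.0479). In both genes the LN libraries lay below the HN libraries, as in 29.9% of all loci tested. Under quantile normalization the median of the list was -1.03 and limma called 1 lower, where it called 1749 of all loci lower. Without HN2, 7 of the 8 differences were negative. With 1 library left out, the median of the list ran from -2.04 to -1.21.

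Chlorophyll is built from glutamate through a chain of tetrapyrroles, and 7 genes of this chain were found. All 7 had negative log2 differences, with a median of -1.32, and all 7 had both LN libraries below both HN libraries, as did 29.9% of all loci tested. limma called 3 lower, against 3.80% of all loci. The authors' deposited table called 6 lower, against 13.6%, and 6 were lower at an unadjusted limma p under 0.05, against 16.4%. ChlI (oy1), a subunit gene of the magnesium chelatase that commits the chain to chlorophyll, had 73.2 and 67.5 FPKM in LN, against 269 and 376 FPKM in HN (log2 difference -2.16, SE 0.28, limma adjusted p = 0.0433). The coproporphyrinogen oxidase gene cpx2 had 26.2 and 28.6 FPKM in LN, against 60.8 and 61.8 FPKM in HN (log2 difference -1.14, limma adjusted p = 0.0455). The uroporphyrinogen decarboxylase gene les22 had 39.7 and 48.2 FPKM in LN, against 118 and 103 FPKM in HN (log2 difference -1.32, limma adjusted p = 0.0459). These 3 genes act at or before the branch to chlorophyll. elm1, which makes the chromophore of phytochrome from the same chain, had 5.03 and 4.42 FPKM in LN, against 5.96 and 5.49 FPKM in HN, the smallest difference of the list (limma adjusted p = 0.472; named after its values were seen). Rescaled to TPM, 6 of the 7 differences were negative and the median was -0.86, against 0.48 over all loci. With 1 library left out, the FPKM median of the list ran from -1.41 to -1.12.

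Nuclear loci matched by symbols of the photosystems and of electron transport, ferredoxins among them, numbered 17. Whether each of them serves photosynthesis was not checked. psad1 stands on 2 loci of the same interval, and the lower was listed at 0 FPKM in LN2 and HN2. Of the 17 loci, 16 had negative log2 differences, with a median of -1.38. The median was -0.74 under quantile normalization and -0.91 in TPM. limma called 2 lower, against 3.80% of all loci tested. The authors' deposited table called 14 lower, against 13.6%, and 15 were lower at an unadjusted limma p under 0.05, against 16.4%. atpc1, a subunit gene of the chloroplast ATP synthase, had 20.3 and 22.8 FPKM in LN, against 60.9 and 85.4 FPKM in HN (log2 difference -1.70, SE 0.24, limma adjusted p = 0.0442). PSA3, named for photosystem I assembly, had 26.0 and 31.2 FPKM in LN, against 73.7 and 85.9 FPKM in HN (log2 difference -1.45, limma adjusted p = 0.0446). With 1 library left out, the median of the 17 ran from -1.56 to -1.17. Without LN2, 15 of the 17 differences were negative. A further 6 loci carry names of plastid genes but lie on nuclear chromosomes in the table. Of these, 4 were tested, all 4 with negative log2 differences (median -0.89). limma called 0 lower, against 3.80% of all loci tested. The authors' deposited table called 3 of them lower, against 13.6%, and 3 were lower at an unadjusted limma p under 0.05, against 16.4%. The levels of the 4 were low, with LN means from 0.80 to 1.37 FPKM.

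**Figure D5:**
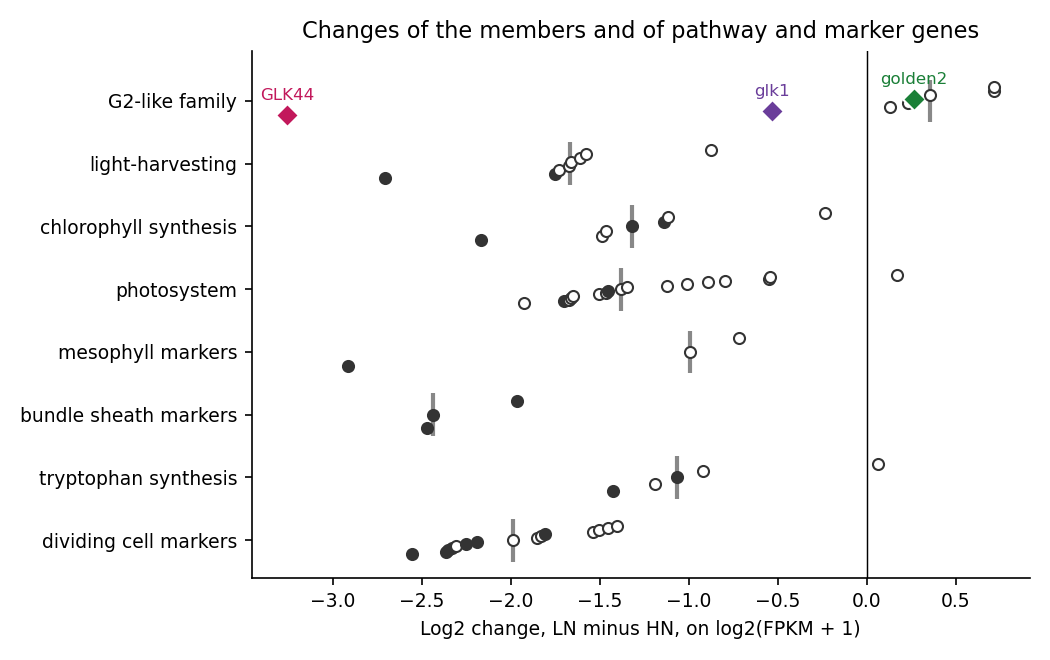
Log2 difference of LN minus HN on log2(FPKM + 1) of the tested genes of each list (circles, filled where limma's adjusted p is under 0.05) and of GLK44, golden2 and glk1 (diamonds, not tested); grey bars are list medians, without the 3 genes in the family row. The light-harvesting, chlorophyll and photosystem medians lie at -1.67, -1.32 and -1.38, between GLK44 at -3.26 and golden2 at 0.27.

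golden2 and glk1 are known from bundle sheath and mesophyll, so marker genes of these cells were read beside them. Of the bundle sheath markers 3 were matched by symbol, all of rubisco or its activase. The markers me3 and pck1 were also sought and matched no locus. limma called all 3 lower, against 3.80% of all loci tested. The rubisco small subunit gene listed as RBCS had 51.7 and 47.6 FPKM in LN, against 252 and 295 FPKM in HN (log2 difference -2.43, limma adjusted p = 0.0365). A second small subunit gene, rbcS, had 64.2 and 49.8 FPKM in LN, against 261 and 385 FPKM in HN (limma adjusted p = 0.0431). The rubisco activase gene rca1 had 2.74 and 1.73 FPKM in LN, against 13.0 and 10.2 FPKM in HN (limma adjusted p = 0.0436). All 3 had both LN libraries below both HN libraries, as did 29.9% of all loci tested. golden2 was 12.3 to 12.9 FPKM in LN and 9.29 to 11.4 FPKM in HN. Its groups did not overlap either, with LN higher, as in 36.6% of all loci tested. The summed level of the 3 markers was 119 and 99.2 FPKM in LN, against 526 and 690 FPKM in HN.

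Of 3 mesophyll markers matched, limma called 1 lower, against 3.80% of all loci tested. The marker cah1 was also sought and matched no locus. The authors' deposited table called 2 lower, against 13.6%, and 2 were lower at an unadjusted limma p under 0.05, against 16.4%. pep1, the C4 phosphoenolpyruvate carboxylase gene, had 5.86 and 6.50 FPKM in LN, against 50.6 and 55.6 FPKM in HN (log2 difference -2.91, SE 0.19, limma adjusted p = 0.0203). pdk1, for the pyruvate phosphate dikinase of the same cycle, had 21.2 and 26.9 FPKM in LN, against 49.0 and 48.1 FPKM in HN (limma adjusted p = 0.0577). mdh6, the plastid malate dehydrogenase gene, had 36.5 and 42.6 FPKM in LN, against 84.4 and 50.9 FPKM in HN (limma adjusted p = 0.165). The summed level of the 3 was 63.6 and 76.1 FPKM in LN, against 184 and 155 FPKM in HN. Over both cell types limma called 4 of 6 markers lower, against 3.80% of all loci tested.

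Markers of dividing cells were read in the same way. All 15 tested loci, 13 histone H4 and 2 PCNA loci, had both LN libraries below both HN libraries, as did 29.9% of all loci tested. limma called 7 lower, against 3.80% of all loci, and the authors' deposited table called 15, against 13.6%. Their summed level was 1101 and 967 FPKM in LN, against 3095 and 5734 FPKM in HN. The shoot meristem gene KN-1 (kn1) was listed at 0 FPKM in both LN libraries and at 0.0507 and 0.0715 FPKM in HN. The ligule gene lg4 was at 0.0647 and 0 FPKM in LN, against 0.0426 and 0.0503 FPKM in HN. The part of these cell types in the levels of GLK44, golden2 and glk1, or of the pathway lists, was not tested.

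Tryptophan synthesis genes were read beside GLK44. Of 5 genes, including the indole-forming enzymes of defence, 4 had negative log2 differences, and the median was -1.06. In TPM the median was -0.64. limma called 2 lower, against 3.80% of all loci tested. The authors' deposited table called 4 lower, against 13.6%, and 4 were lower at an unadjusted limma p under 0.05, against 16.4%. TSA, the tryptophan synthase alpha subunit gene, had 8.29 and 9.34 FPKM in LN, against 18.7 and 20.3 FPKM in HN (log2 difference -1.06, SE 0.20, limma adjusted p = 0.0476). BX1, which releases indole for benzoxazinoid defence compounds, had 13.4 and 20.8 FPKM in LN, against 44.1 and 48.9 FPKM in HN (log2 difference -1.42, limma adjusted p = 0.0476). igl1, an indole-3-glycerol phosphate lyase gene named after its values were seen, had 26.1 and 24.3 FPKM in LN, against 25.0 and 23.1 FPKM in HN. Its groups overlapped. limma called 0 of the 5 lower when FPKM was rescaled to TPM, where it called 737 of all loci lower. It called 4 under quantile normalization, where it called 1749 of all loci lower. With 1 library left out, the FPKM median of the list ran from -1.12 to -0.88.

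The genes with the most similar profiles were sought among 4741 other tested loci with a symbol. Likeness was the root mean square distance between log2(FPKM + 1) profiles over the 4 libraries, each centred on its own mean. Since GLK44 was chosen for its large difference, how few loci lie near it follows from that choice and is no result. The closest to GLK44 was LOB14, a gene of the LOB-domain transcription factor family, with 0.173 and 0 FPKM in LN, against 9.04 and 9.72 FPKM in HN (distance 0.12). The locus listed as HB was at 0 FPKM in both LN libraries, against 9.18 and 10.2 FPKM in HN (distance 0.12). The third was CYP71C4, a cytochrome P450 gene of benzoxazinoid synthesis, with 11.7 and 16.9 FPKM in LN, against 123 and 151 FPKM in HN (distance 0.20).

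The closest to golden2 were IDP168, TIDP3353 and bHLH39, at distances of 0.012, 0.022 and 0.026. bHLH39, a gene of the basic helix-loop-helix family, had 18.2 and 16.9 FPKM in LN, against 13.4 and 16.5 FPKM in HN. The closest to glk1 were IIG2, gpm334 and cl58600_1, at distances of 0.061, 0.062 and 0.067. gpm334 had 29.5 and 18.2 FPKM in LN, against 31.3 and 40.0 FPKM in HN, the same order of the 4 libraries as glk1.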

How the data were processed

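RNA of 2 LN and 2 HN libraries of maize leaf elongation zone was sequenced. The authors deposited FPKM values per locus and library, per the file headers, and for LN over HN their own log2 fold change with its p-value and its q-value, all in the deposited table. The submitters' processing notes name the genome build B73 RefGen_v3 and the tools edgeR and TopHat2, without versions. Which program assembled the loci is not given in the sources used here. Both HN columns carry 1 name and were assigned to the group without a number.

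The table's 31324 rows hold 30378 loci. The 851 loci with several genes were tested once and kept out of lists. limma-trend (limma 3.58.1, R 4.3.3) was fitted on log2(FPKM + 1), with loci of at least 1 FPKM in 2 or more libraries, no covariate, and Benjamini-Hochberg adjustment over all 22489 loci at 0.05. It had 2 residual and 3.48 prior degrees of freedom and was tested on simulated data. No counts were used. Depth is unknown, so no counting intervals are given, and 2 libraries a group limit the precision.

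The 3 genes and the lists were chosen with earlier results of these data known. Lists were matched on symbols and synonyms of RefSeq's gene table, which describes assembly Zm-B73-REFERENCE-NAM-5.0 and gave names, no positions. Genes matching by letters only (POR1, psat1 and the dihydroflavonol reductase entry FNR) were left out after the table had been seen. The text names, of each list, up to 4 genes past the threshold by adjusted p, or the 2 most abundant where none passed, and the 3 closest profiles. Alternatives were other pseudocounts and filters, quantile normalization, TPM, each library left out and the authors' calls.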

Additional observations from a re-analysis of the deposited data

How the results depend on the processing

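Over 11 alternatives, the log2 difference of GLK44 stayed negative, that of golden2 positive and that of glk1 negative. GLK44 was at -4.75 with a pseudocount of 0.1, at -3.87 with 0.5 and at -5.24 in the authors' deposited table. With each library left out it ranged from -3.44 to -3.07, golden2 from 0.13 to 0.40 and glk1 from -0.81 to -0.26. In TPM, golden2 was at 0.71 and glk1 at -0.10. Counts of limma calls depended far more on the setting. Of all loci, 855 were lower and 266 higher, against 69 and 32 with a pseudocount of 0.1, 0 and 1 with all loci above 0, 1749 and 971 under quantile normalization and 3064 and 1295 in the authors' deposited table. In TPM 737 were lower and 980 higher. With 1 library left out they ranged from 43 to 5305 lower and from 22 to 5165 higher. Without a library, the spread of its group is taken from the other group. Light-harvesting genes called lower were 2, and 0 with a pseudocount of 0.1 or all loci above 0, 1 with a pseudocount of 0.5, in TPM or under quantile normalization, 7 by the authors' q-values, and 0 to 8 with 1 library left out. Chlorophyll synthesis genes were 3, and 0 with a pseudocount of 0.1 or all loci above 0. They were 5 with a filter of 5 FPKM, 2 in TPM and 6 by the authors' q-values. Photosystem genes were 2, and 0 with a pseudocount of 0.1 or all loci above 0, 5 in TPM or under quantile normalization, 14 by the authors' q-values, and 0 to 15 with 1 library left out. Mesophyll and bundle sheath markers were 4, and 2 with a pseudocount of 0.1 and 0 with all loci above 0. Genes of the tryptophan list, which includes BX1 and igl1, were 2. They were 0 with a pseudocount of 0.1, with all loci above 0 or in TPM, and 1 with a pseudocount of 0.5. They were 4 under quantile normalization or by the authors' q-values. The chlorophyll, marker and tryptophan counts also changed with 1 library left out. Of the other family genes, 0 were called higher and 0 lower in every setting that kept all 4 libraries. With an HN library left out, the count called higher did not stay at 0. The cause of these changes was not tested. No paired analysis was possible because the HN columns carry no replicate numbers of their own. Absolute depth is unknown, so how few reads stand behind the LN level of GLK44 cannot be given.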
